A study of Homo sapiens with 2 samples.

Results

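Transcripts of the bone morphogenetic protein (BMP) pathway were examined in H2228 cells through 10 genes. They comprise the ligand genes BMP2 and BMP4, the antagonist gene NOG, and 7 genes whose transcription is known to respond to BMP signals, ID1, ID2, ID3, ID4, SMAD6, SMAD7 and BAMBI. The genes were picked for their roles in the pathway, but with the IL4-minus-untreated differences of these arrays in view, so that BMP2, BMP4, ID1 and ID2 in particular were chosen by the values given here. Their differences are therefore a description and carry no test. All 10 genes were measured, out of 19775 in all, by 19 probe sets that name no other gene.

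H2228 is a cell line from a human lung adenocarcinoma with the EML4-ALK variant 3 fusion, and interleukin 4 (IL4) is a cytokine that signals through JAK kinases and STAT6. The series compares H2228 cells without treatment with H2228 cells given IL4, at 100 ng/mL for 30 min as its design text states, in order to learn which genes respond to IL4 in cells that carry the fusion. RNA of each condition was hybridized to 1 Affymetrix Human Genome U133 Plus 2.0 array, so there is no replicate, no standard deviation and no p-value, and each difference below is one between 2 arrays. The labels of both samples also mention transfection with EML4-ALK plasmids, siRNAs or controls, and they do not say whether the cells on these arrays were transfected. A single cell line was used, and in bulk RNA fewer expressing cells and less RNA per cell cannot be told apart.

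BMPs are secreted ligands of the TGF-beta superfamily. They bind pairs of type I and type II receptor kinases, which phosphorylate SMAD1, SMAD5 and SMAD9, and these enter the nucleus with SMAD4. The ID genes are among the best known direct targets of this route. Their products lack a DNA-binding region and hold E proteins, a class of helix-loop-helix transcription factors, away from DNA. The inhibitory SMADs (SMAD6 and SMAD7) and the decoy receptor BAMBI are also induced by the signal and dampen it, while noggin, the product of NOG, captures the ligands outside the cell. In the lung, BMP4 takes part in branching of the airways and in the patterning of the epithelium. The arrays measured mRNA only and give neither the phosphorylation of SMAD proteins nor the amount of any ligand.

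The deposited values are log2 expression values. A difference of 0.585 on that scale is 1.5-fold, the level used here, and the median of all probe sets, 5.02, served as a level below which a value was regarded as dim. Of several probe sets of 1 gene, the one with the highest mean over both arrays stood for it. Over 6067 genes with a second probe set at or above the median level, the differences of the first and second probe sets deviated from each other with a standard deviation of 0.25, which describes disagreement within these arrays and not variation between cultures. Of 54675 probe sets, 4528 (8.28%) held exactly the same value on both arrays, and 0 of these belonged to the 10 genes. Of the identical probe sets, 858 lay at or above the median level. Such ties are unusual for RMA values, the method named for these arrays, and how they arose is not given in the sources used here, so the median difference of 0 over all genes rests on values whose processing is known only in part.

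The 8 markers of lung adenocarcinoma epithelium examined, among them EPCAM and KRT18, lay above the median level on both arrays, between 6.29 and 11.80 in untreated cells and between 6.61 and 11.84 with IL4. Their median log2 difference was 0.22. CDH1, which encodes E-cadherin, was higher with IL4 (10.18 and 10.92), the lung lineage factor gene NKX2-1 was lower (7.88 and 6.91), and the other 6 were short of 1.5-fold. Of 7 fibroblast markers, 2 had a mean at or above the median level, COL1A1 at 10.82 and 11.23 and THY1 at 5.02 and 5.07, and the log2 of the summed level of the 7, most of it from COL1A1, was 10.93 in untreated cells and 11.31 with IL4. COL3A1 was dim on both arrays, at 3.67 and 4.45, and was the only fibroblast marker past 1.5-fold. Of 4 leukocyte markers, CD3E and ITGAM had a mean at or above the median level, with values up to 5.59, and the defining leukocyte gene PTPRC was at 2.50 and 2.37; the log2 of their summed level was 6.88 and 6.89. Of 5 endothelial markers 1 was above the median level, PECAM1 at 5.96 and 6.11, with a log2 of the summed level of 7.12 and 7.24, and the largest difference was that of KDR, dim at 3.67 and 4.11. The part of other cells in the differences below was not tested.

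On the IL4 array BMP2, NOG and SMAD7 were higher by 1.5-fold or more, which is 3 of the 10 genes. Lower by as much were 5 genes, BMP4, ID1, ID2, ID4 and SMAD6, while ID3 and BAMBI differed by less. For comparison, 3.21% of all genes on the arrays (635) reached 1.5-fold upwards and 4.39% (868) downwards. The genes were selected on this same contrast, so nothing was read from these shares. By the probe sets that stood for the genes, the smallest difference past 1.5-fold was that of SMAD7, 0.80, and the largest short of it was that of BAMBI, -0.11. Further probe sets of ID4 lay between these sizes, at -0.37 and -0.45.

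**Figure D1:**
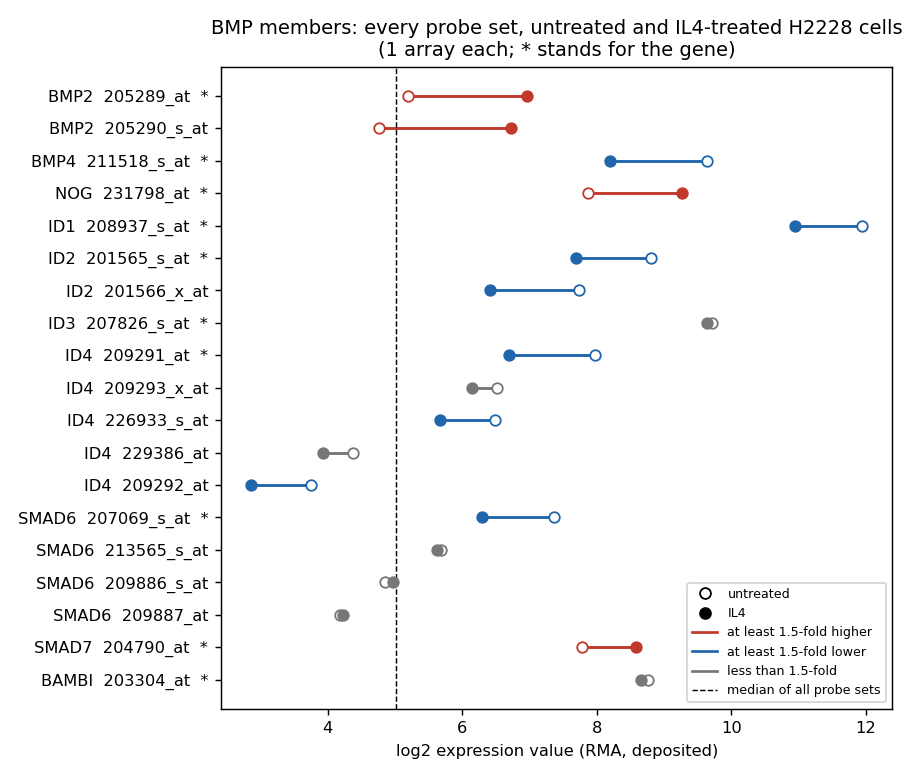
Log2 expression values (x axis) of each of the 19 probe sets of the 10 genes (rows), with open circles for untreated and filled circles for IL4-treated H2228 cells, 1 array each. Values are to be compared within a row; BMP2, NOG and SMAD7 lie to the right with IL4, BMP4, ID1 and ID2 to the left in every row, and the rows of SMAD6 disagree.

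The ligand genes moved apart. BMP2, which encodes a ligand known for bone formation and heart development, was at a log2 value of 5.19 in untreated cells and 6.96 with IL4, a 3.41-fold difference. The untreated value lay just above the median of all probe sets. Its second probe set was dim in untreated cells, at 4.76, and was at 6.73 with IL4, so both probe sets placed the IL4 array higher. Ordered by log2 difference, BMP2 held rank 44 from the highest among the 19775 genes.

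BMP4 was at 9.63 in untreated cells and at 8.20 with IL4, which is 2.70-fold lower and rank 36 from the lowest. Both values were well above the median level. Its single probe set is of a type that may bind several transcripts (suffix _s_at), so no second reading of BMP4 was available on these arrays. The log2 differences of both ligands, 1.77 and -1.43, were opposite in direction. Levels of different probe sets cannot be compared, so the arrays do not show which of both ligand transcripts was more abundant under either condition.

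NOG, whose product noggin binds BMP2 and BMP4 and keeps them from their receptors, was at 7.86 in untreated cells and at 9.27 with IL4. It was 2.64-fold higher, a log2 difference of 1.40 at rank 102 from the highest. It was measured by 1 probe set, and both values were far above the median level.

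The feedback inhibitors did not move as a group. SMAD7, which blocks type I receptors of both the BMP and the TGF-beta branch and brings ubiquitin ligases to them, was at 7.77 in untreated cells and at 8.58 with IL4, or 1.75-fold higher by its single probe set. BAMBI, a pseudoreceptor without a kinase domain, was at 8.76 and 8.65, a log2 difference of -0.11. SMAD6, which preferentially inhibits the BMP branch, was represented by probe set 207069_s_at at 7.37 in untreated cells and 6.29 with IL4, or 2.11-fold lower.

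The remaining probe sets of SMAD6 did not show that decrease. Probe set 213565_s_at, also above the median level, was at 5.68 and 5.62, a log2 difference of -0.057. Probe sets 209886_s_at and 209887_at, with means below the median level, had differences of 0.11 and 0.039. The 4 readings of SMAD6 thus spread from -1.08 to 0.11, and their mean was -0.25, less than 1.5-fold. The count of SMAD6 as lower rests on 1 of its 4 probe sets.

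Among the ID genes, 3 of 4 were lower with IL4. ID1 was at 11.94 in untreated cells and at 10.95 with IL4, which is 1.99-fold lower, by its only probe set. ID2 was at 8.81 and 7.69, or 2.16-fold lower, and its second probe set gave 7.73 and 6.40, or 2.51-fold lower. A further probe set, 213931_at, names ID2 together with the related sequence ID2B and was not counted; it stood at 5.64 and 4.58, 2.08-fold lower. All readings that name ID2 therefore placed the IL4 array lower by more than 1.5-fold.

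ID4 was at 7.97 in untreated cells and at 6.69 with IL4 by its brightest probe set, 2.42-fold lower. The other 4 probe sets of ID4 were lower too, but by unequal amounts. Those above the median level had log2 differences of -0.37 (209293_x_at) and -0.81 (226933_s_at), and those below it had -0.45 (229386_at) and -0.89 (209292_at). ID4 was at least 1.5-fold lower by 3 of its 5 probe sets and by the mean of all, -0.76, but not by the second brightest.

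ID3 stood apart from its family on these arrays. It was at 9.72 in untreated cells and at 9.64 with IL4, a log2 difference of -0.076. Its single probe set was well above the median level on both arrays. By log2 difference ID4, ID2 and ID1 held ranks 65, 110 and 185 from the lowest of all genes, and ID3 held rank 7764. Whether ID3 differed from ID1, ID2 and ID4 beyond the variation between cultures was not tested, since there is 1 array per condition.

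**Figure D2:**
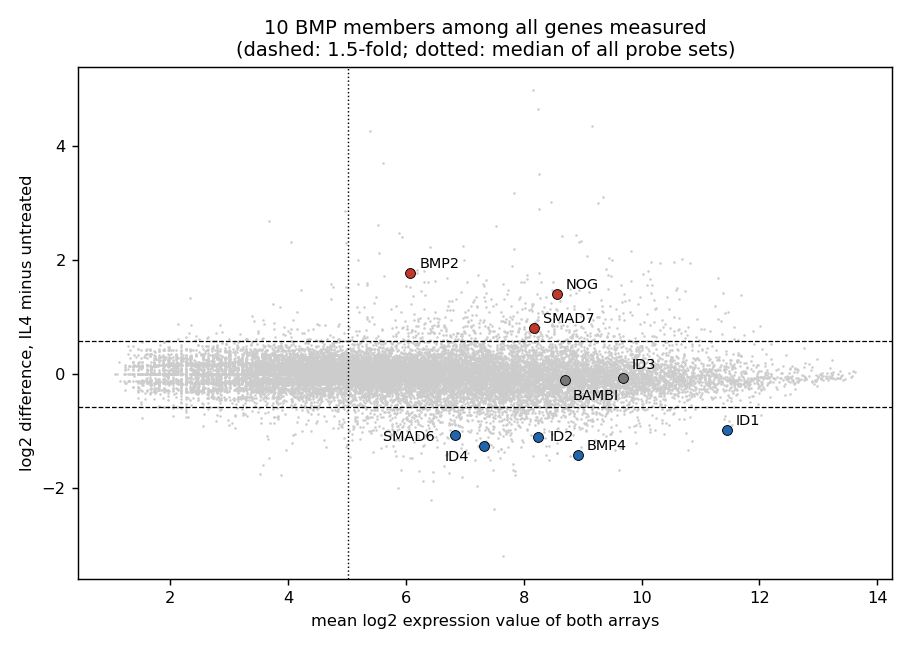
Log2 difference between the IL4 array and the untreated array (y axis) against the mean log2 value of both arrays (x axis), 1 grey point per gene, with the 10 genes of the BMP pathway in red (at least 1.5-fold higher), blue (at least 1.5-fold lower) or dark grey. BMP2 is the highest of them at 1.77 and BMP4 the lowest at -1.43, while ID3 and BAMBI lie between the dashed lines.

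The stretches before the transcription starts of the 4 ID genes, BMP4 and SMAD6 are shown because the ID genes and BMP4 were lower together while ID3 was not, and because BMP response elements and STAT6 sites are known to lie in such regions. The RefSeq table of promoters (build GRCh38.p14) held 8 of the 10 genes with 12 starts, and BMP2 and NOG were not among them. Of the 12 windows 6 are printed, and those of SMAD7 and BAMBI and the other 2 of BMP4 are not. Each sequence gives the 250 bases before a start on the gene's own strand, 5′ to 3′. Capitals mark matches, on either strand, to the STAT6 motif TTCNNNNGAA, to the SMAD1 and SMAD5 motif GGCGCC, to the SMAD motif CAGAC (read as its reverse complement on the other strand) or to the palindrome GTCTAGAC, which SMAD3 and SMAD4 bind. The last of these was added after the sequence of SMAD6 had been read. No match overlapped another in these promoters.

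The 4 ID genes are shown first, at chr20:31605039-31605288 (plus strand), chr2:8681806-8682055 (plus strand), chr1:23559502-23559751 (minus strand) and chr6:19837120-19837369 (plus strand), for the contrast between ID3 and the others.
ID1: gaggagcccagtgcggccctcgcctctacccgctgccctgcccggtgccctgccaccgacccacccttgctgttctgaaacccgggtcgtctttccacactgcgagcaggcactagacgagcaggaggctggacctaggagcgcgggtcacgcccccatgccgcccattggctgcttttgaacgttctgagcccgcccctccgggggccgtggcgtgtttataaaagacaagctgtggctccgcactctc
ID2: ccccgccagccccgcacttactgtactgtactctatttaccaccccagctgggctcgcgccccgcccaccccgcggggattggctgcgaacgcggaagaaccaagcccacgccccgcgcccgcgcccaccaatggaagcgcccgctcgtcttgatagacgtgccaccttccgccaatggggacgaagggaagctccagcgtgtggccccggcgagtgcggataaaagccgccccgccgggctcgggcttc
ID3: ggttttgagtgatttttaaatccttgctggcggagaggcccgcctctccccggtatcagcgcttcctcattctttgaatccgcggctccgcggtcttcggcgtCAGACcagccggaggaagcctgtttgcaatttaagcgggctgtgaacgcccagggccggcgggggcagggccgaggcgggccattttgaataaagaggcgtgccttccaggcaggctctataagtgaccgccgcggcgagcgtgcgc
ID4: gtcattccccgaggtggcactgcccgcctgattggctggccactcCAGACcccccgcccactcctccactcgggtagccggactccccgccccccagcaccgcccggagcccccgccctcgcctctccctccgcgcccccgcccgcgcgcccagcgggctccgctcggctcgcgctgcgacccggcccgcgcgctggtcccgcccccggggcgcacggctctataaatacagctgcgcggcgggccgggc

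ID1 and ID2 held none of the 4 motifs in this window. ID3 held CAGAC 147 bases before its start and ID4 held CAGAC 205 bases before its start. CAGAC occurs in 38% of all 35097 promoter windows of this length. These letters therefore did not separate the 3 ID genes that were lower from ID3, and the absence of a match in so short a window says nothing about SMAD binding elsewhere at these genes.

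BMP4 at chr14:53955051-53955300 (minus strand), the most upstream of its 3 starts in the table, and SMAD6 at chr15:66701986-66702235 (plus strand) carry the rarer matches.
BMP4: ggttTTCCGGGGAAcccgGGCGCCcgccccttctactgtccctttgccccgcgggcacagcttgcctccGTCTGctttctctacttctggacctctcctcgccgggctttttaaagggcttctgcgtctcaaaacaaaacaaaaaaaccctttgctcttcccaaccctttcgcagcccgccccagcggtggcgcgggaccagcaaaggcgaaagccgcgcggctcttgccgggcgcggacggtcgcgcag
SMAD6: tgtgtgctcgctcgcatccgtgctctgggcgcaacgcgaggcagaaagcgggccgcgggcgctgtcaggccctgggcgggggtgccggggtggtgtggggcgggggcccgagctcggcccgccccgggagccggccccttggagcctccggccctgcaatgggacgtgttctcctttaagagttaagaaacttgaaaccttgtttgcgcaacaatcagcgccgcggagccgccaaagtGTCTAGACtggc

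The BMP4 window held TTCCGGGGAA, a match to the STAT6 motif, 246 bases before the start, GGCGCC at 232 bases and GTCTG at 181 bases. No other of the 12 windows had a STAT6 match, which 5.38% of all windows hold. GGCGCC occurs in 16.4% of all windows and, among the members, in BMP4 and 3 times in BAMBI. SMAD6 held GTCTAGAC 12 bases before its start, a sequence found in 64 of the 35097 windows (0.182%). This motif was added after the SMAD6 sequence had been read, so its share does not measure how unusual the match is. A match is a description of letters and does not show that a factor bound there in H2228 cells.

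The rest of the pathway was described through 6 lists with 80 genes, of which 77 were measured. Without the 10 members, 67 genes remained. On the IL4 array 4 of them (5.97%) reached 1.5-fold upwards and 6 (8.96%) downwards, against 3.21% and 4.39% of all genes. The lists were chosen with earlier results of these data known, so nothing was read from these shares. The median log2 difference of the 67 genes was 0, as was that of all genes. Both medians are values of genes that were identical on both arrays. The 4 higher genes were FST, FSTL3, RGMB and SNAI2, and the 6 lower genes were TGFBR3, SOST, HES1, HEY1, MSX2 and TCF4.

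**Figure D3:**
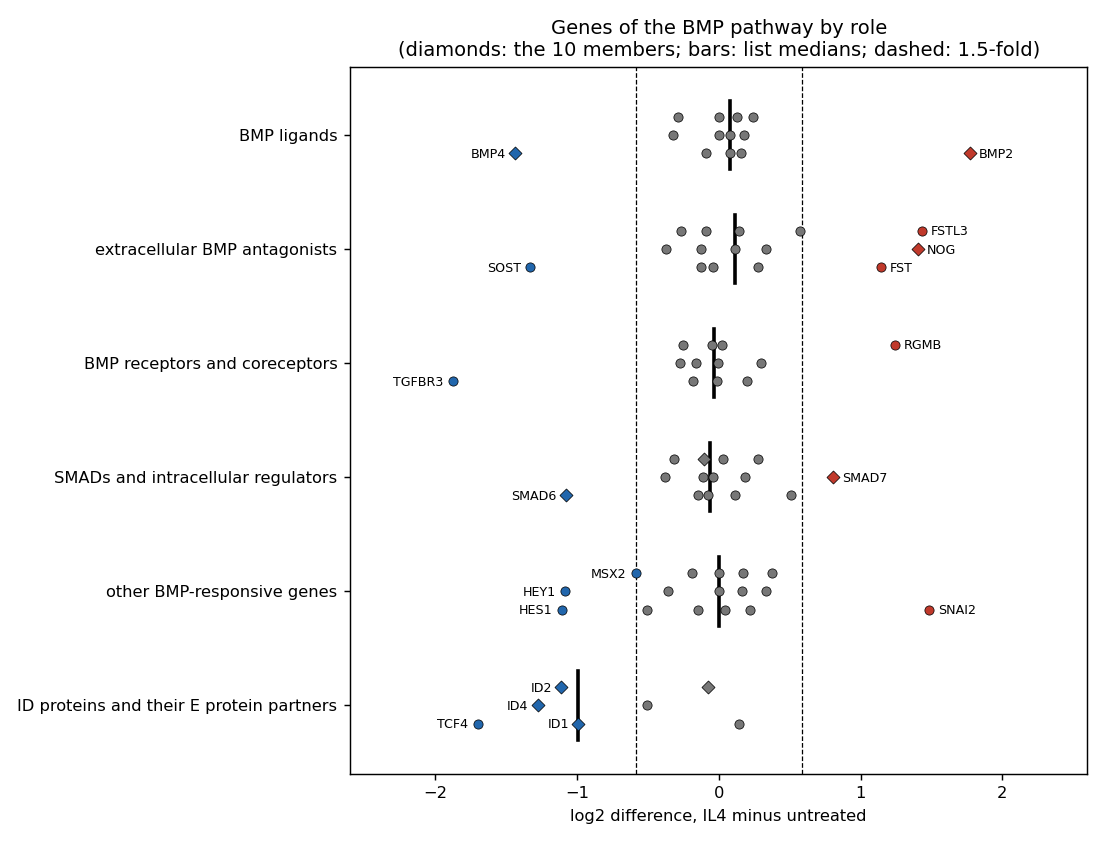
Log2 difference between the IL4 array and the untreated array (x axis) for each measured gene of 6 lists of BMP pathway genes (rows), 1 symbol per gene, spread vertically for visibility. Diamonds are the 10 members, black bars the list medians and dashed lines 1.5-fold; most receptors and SMADs lie between the lines, and the ID and E protein list has its median at -0.99.

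Among 13 measured BMP and GDF ligand genes, BMP2 and BMP4 were the only ones past 1.5-fold. The other 11 had log2 differences between -0.32 (BMP10) and 0.24 (GDF7), and that of BMP7, a ligand made by many epithelia, was 0.18. BMP10 and GDF7 were dim on both arrays, and BMP3 and BMP5 held the same value on both. Of the 13 genes, 8 had a mean at or above the median level. The median of the list was 0.079, and it was -0.090 with the second brightest probe set.

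Of 15 extracellular antagonist genes, 3 were higher and 1 was lower, with a median of 0.12. Only 7 of the 15 had a mean at or above the median level, and among these 3 were higher, 0 were lower and the median was 0.57. That median is the value of FSTL1, and NOG, 1 of the 3, is a member picked with these differences in view. Of all 12961 genes at that level, 562 were higher and 763 lower, with a median of -0.028. With the second brightest probe set the median of the list was 0. Besides NOG, the higher genes were FST and FSTL3, which encode follistatin and its relative, binders of activins and of some BMPs. FST was at 8.54 in untreated cells and at 9.68 with IL4, or 2.21-fold higher, and its 3 probe sets gave log2 differences of 1.14, 1.16 and 1.15. FSTL3 was at 6.22 and 7.65, 2.69-fold higher by 1 probe set. The lower gene, SOST, had values of 4.63 and 3.30, both of them dim, and a fold would mean little there. FSTL1 missed the level with a log2 difference of 0.57 and passed it with a loess correction (0.64) and with quantile normalization (0.59), but its second probe set had -0.21. It is named here after its values were seen. GREM1, another antagonist, was dim at 1.85 and 1.76.

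Of 12 measured receptor and coreceptor genes, RGMB was higher and TGFBR3 was lower, and the median was -0.030. The type I receptor gene BMPR1A was not analysed here. RGMB, a membrane-anchored coreceptor that binds BMP2 and BMP4, was at 7.40 in untreated cells and at 8.64 with IL4, 2.37-fold higher, and its 4 probe sets lay between 1.07 and 1.24. TGFBR3, the coreceptor betaglycan, was at 7.22 and 5.34, and its second probe set had a log2 difference of -1.83 beside the -1.88 of the first. The type II receptor gene BMPR2 was at 9.14 and 8.97 and the type I receptor gene ACVR1 at 8.74 and 9.03.

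Of 14 genes of SMADs and intracellular regulators, SMAD7 and SMAD6 were the only ones past 1.5-fold, and the median was -0.059. This median changed sign with a loess correction (0.010) and when probe sets were averaged (0.020). SMAD1, SMAD5, SMAD9 and SMAD4, the signal carriers, had log2 differences of -0.15, -0.11, -0.32 and 0.11. The ubiquitin ligase gene SMURF1, whose product works with SMAD7, was at 6.91 in untreated cells and at 7.43 with IL4.

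Of 16 further genes known to respond to BMPs, 3 were lower and 1 was higher, with a median of 0. That median rests on MSX1 and HAMP, which held the same value on both arrays. It was -0.071 among the genes at or above the median level and 0.094 with the second brightest probe set. HES1 and HEY1, transcriptional repressors that are also targets of Notch, were at 7.95 and 6.88 in untreated cells and at 6.85 and 5.80 with IL4, which is 2.15-fold and 2.12-fold lower. A further, dim probe set of HES1, the only one without the suffix _s_at, had the same value, 3.22, on both arrays. MSX2, a homeobox gene, lay at the level itself with 8.57 and 7.99 (a log2 difference of -0.59) and missed it with a loess correction (-0.52), with quantile normalization (-0.55) and when its probe sets were averaged (-0.31). SNAI2, a repressor of epithelial genes, was at 8.69 and 10.18, 2.80-fold higher. JUNB and ATOH8 had log2 differences of 0.38 and -0.50, short of 1.5-fold.

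The E protein genes, whose products the ID proteins bind, were unequal. TCF4 was at 8.69 in untreated cells and at 6.99 with IL4, which is 3.25-fold lower. All 8 of its probe sets were lower by more than 1.5-fold, with log2 differences from -1.74 to -0.91. TCF12 was at 9.06 and 8.55, a log2 difference of -0.50, and TCF3 at 9.69 and 9.83. With the ID genes, 4 of the 7 genes of this list were lower and 0 were higher, and the median log2 difference was -0.99. With the second brightest probe set 3 were lower and the median was -0.37, short of 1.5-fold, and with the mean over probe sets it was -0.76. ID1, ID2 and ID4 make up most of that count and are members, which were picked with these differences in view, ID1 and ID2 in particular.

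The members' values were set against the other ways of processing the same arrays. BMP2, NOG and SMAD7 stayed higher and BMP4, ID1 and ID2 stayed lower past 1.5-fold under each alternative that kept this level and gave a value, 8 for BMP2, NOG and SMAD7 and 7 for the others. Most of these alternatives could not change the value. For NOG, SMAD7, BMP4 and ID1, with 1 probe set each, only the loess correction and quantile normalization could. For BMP2 and ID2 the second probe set and the mean over probe sets could as well. Leaving out probe sets with the suffix _s_at or _x_at removed BMP4, ID1, ID2 and ID3 altogether, since no other probe set names them alone. Of the 5 lower genes, ID4 and SMAD6 depended on the probe set taken.

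**Figure D4:**
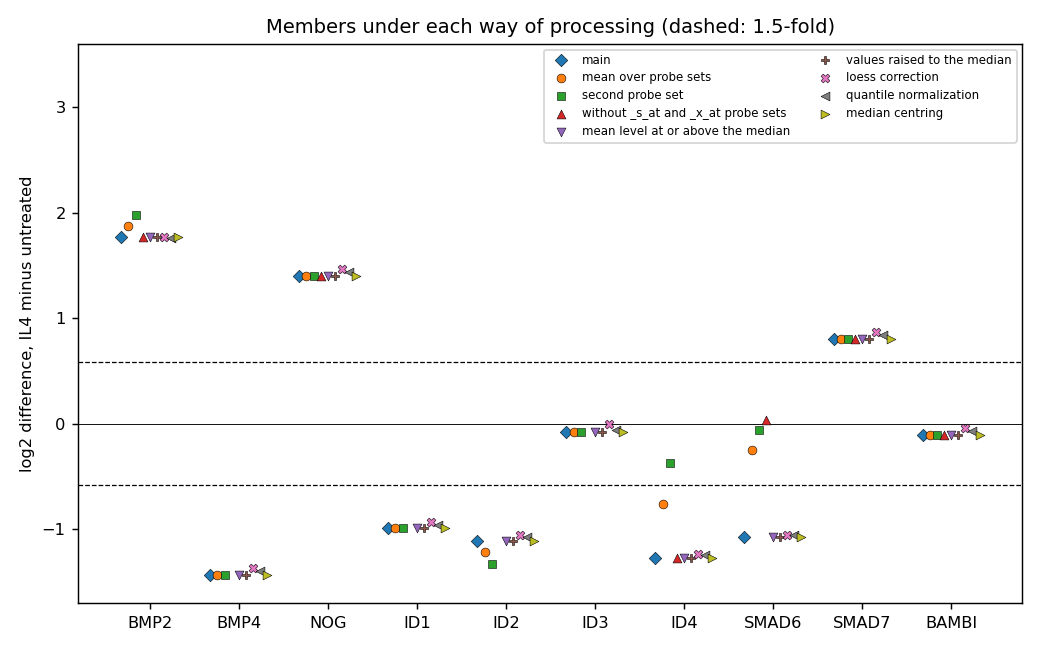
Log2 difference between the IL4 array and the untreated array (y axis) of the 10 genes (x axis) under the main way of processing (blue diamonds) and 8 alternatives (other symbols), with dashed lines at 1.5-fold. Symbols of a gene lie close together except for ID4, from -1.28 to -0.37, and SMAD6, from -1.08 to 0.039. The 6 genes with 1 probe set could change only with the loess correction and quantile normalization.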

How the data were processed

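The data are the values that the authors deposited for 2 arrays (GeneChip Human Genome U133 Plus 2.0), 1 of untreated H2228 cells and 1 of H2228 cells with IL4. The authors deposited log2 expression values, 1 per probe set. RMA is named, with no version, in the processing notes of the submitters, and the paper gives GCOS as the software for raw data. The genome build is not given in the sources used here. Scanner files were not analysed here, so background correction and normalization were used as deposited, and the number of arrays limits the precision.

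Probe sets took their gene from the array annotation, updated by gene number to the symbols of the RefSeq table (GRCh38.p14), and those naming several genes were left out. The log2 difference was IL4 minus untreated. The members and the 6 pathway lists were chosen with earlier results of these data known. All members and every gene of the pathway and marker lists past 1.5-fold are named (or, in a list with none, its largest difference), and no gene is named for a similar pattern, since 2 arrays give none. The alternatives were the mean over probe sets, the second brightest probe set, no _s_at or _x_at probe sets, 2 uses of the median of all probe sets as a floor, a loess correction (fraction 0.3), quantile normalization, median centring and a 2-fold level. The calculation was tested on simulated data. All probe sets of a gene were shifted alike there, so the choice of probe set was not tested. Python 3.11.15, numpy 2.4.6, pandas 2.3.3, statsmodels 0.14.6 and matplotlib 3.10.9 were used.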

Additional observations from a re-analysis of the deposited data

How the results depend on the processing

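The count of 3 higher members was the same under every alternative except the 2-fold level, where it was 2. The count of 5 lower members was 3 with the second brightest probe set, where ID4 (-0.37) and SMAD6 (-0.057) were short of 1.5-fold, and 1 without _s_at and _x_at probe sets, where BMP4, ID1, ID2 and ID3 had no probe set left and SMAD6 turned to 0.039. It was 4 with the mean over probe sets (ID4 -0.76, SMAD6 -0.25) and 4 at the 2-fold level, and 5 under the other alternatives. Of 76 values of single members under alternatives, 71 moved by less than 0.25, the standard deviation between probe sets, 4 moved by more and 1 reversed. Many of the 71 could not move at all, so their number is no measure of stability. Median centring subtracted 0, and both uses of the median as a floor left every member's value as it was. The 6 members with 1 probe set had no second reading to take or to average. For the other pathway genes, alternatives added after the data were seen gave 3 to 5 higher and 4 to 7 lower genes, against 4 and 6. Over all genes, the 2-fold level gave 219 higher and 176 lower genes, against 635 and 868 at 1.5-fold. The untreated values of BMP2, 5.19 and 4.76, lay close to the median of all probe sets, and no detection call was used here that would tell them from background. No paired analysis was possible because there is 1 array per condition, and for the same reason no replicate could be left out.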
